A study of Homo sapiens with 3 samples.

Results

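The genes described here are 50 genes of DNA replication and S phase, chosen by gene symbol to cover origin licensing, the MCM helicase and its activation, the replicative polymerases, the sliding clamp, nucleotide supply, the cyclin E and E2F regulators, chromatin copying and the replication fork. Probes were assigned to them by RefSeq accession, which gave 61 probes for 49 of the 50 genes, out of 22430 genes named on the arrays. No probe was assigned to POLA2, the regulatory subunit of DNA polymerase alpha, and it has no value below. Expression was measured in TK-10, a human renal cell carcinoma line, on 3 single-colour Agilent arrays, with 1 array per condition and no replicates. Vehicle cells had been given 0.1% DMSO for 48 h. Cordyceps cells had been given cordyceps at 750 μg/ml for 48 h, and sunitinib cells had been given 10 μM sunitinib, an inhibitor of receptor tyrosine kinases, for the same time. The culture medium of all 3 conditions contained nicotinamide, troglitazone and zinc sulfate. The labels name cordyceps, a genus of fungi, where the study's text names cordycepin, an adenosine analogue from that genus, at another dose, and the files do not settle which was used. The array is therefore called the cordyceps array. The study's text does not describe the sunitinib array.

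Cells copy their DNA once per cycle. In G1, the origin recognition complex, CDC6 and CDT1 load the ring-shaped MCM helicase onto origins, and at the start of S phase CDC45 and the GINS complex join it to form the active helicase. Primase with DNA polymerase alpha starts each strand, polymerases delta and epsilon extend it, and the clamp PCNA, opened by the RFC loader, holds them on the template. Many of these genes are transcribed at the G1 to S transition by E2F factors, which the retinoblastoma protein and its relatives hold back in resting cells. Genes of mitosis are transcribed later in the cycle, in large part through a promoter element called CHR.

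Levels are background-subtracted signals from Agilent's Feature Extraction software, taken as log2 relative to the 75th percentile of all probes of the same array. The percentile stood at 165 (vehicle), 138 (cordyceps) and 78.3 (sunitinib), so raw signals were mostly lower on the sunitinib array, and the log2 ratios below are relative to this overall level. Between 37.8% and 45.5% of the probes were well above background by the software's own criterion. A bright area on the cordyceps array covered 538 gene spots, none of them of a probe of the 50 genes. All 3 arrays were on 1 slide and read in 1 scan. A single array stood for each condition, which allows no test across arrays and no p-value, and limits how precise any ratio can be. Each ratio is instead set beside a 95% limit from the software's own error estimates for the signals compared, which was 0.41 on the log2 scale for the median replication gene on sunitinib. That limit covers the error of reading an array and not the spread between cultures.

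Promoter sequence was read for the genes from RefSeq (GRCh38.p14), in windows from 250 bases before to 50 bases after each transcript start. Windows were at hand for 42 of the 50 genes. They were searched on both strands for letters that E2F factors are known to bind, namely TTTCCCGC, TTTGGCGC, TTTCGCGC and TTTGCCGC. At least 1 match was present in 25 of 58 windows (43.1%), against 1164 of 35116 windows (3.31%) of all genes. The stretches below are shown because they place the same letters in genes at both ends of the sunitinib ratios. The first 5 genes were more than 2-fold lower on the sunitinib array, and the last 3 were not. The median sunitinib log2 ratio was −0.76 over 22 genes with a match and −0.81 over 17 genes with a window but no match. Capitals mark the matched letters, read on the strand of the gene, so that a match to the other strand appears reversed and complemented. The stretches lie at chr20:33686390-33686426 (E2F1, minus strand), chr1:23531260-23531283 (E2F2, minus), chr19:4909479-4909502 (UHRF1, plus), chr16:85688970-85688993 (GINS2, minus), chr2:135876514-135876541 (MCM6, minus), chr3:127598405-127598432 (MCM2, plus), chr20:5126666-5126689 (PCNA, minus) and chr19:48170443-48170466 (LIG1, minus).
E2F1: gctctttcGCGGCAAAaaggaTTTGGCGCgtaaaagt
E2F2: gcacgacgTTTGGCGCtaaaaaaa
UHRF1: gagttttcGCGGGAAAaaaatcag
GINS2: tcgccgtgGCGGGAAAacggcggc
MCM6: tggtcaggTTTGGCGCGAAAtctccagc
MCM2: gaaccactTTTCGCGCGAAAcctggttg
PCNA: cgtcagggGCGGGAAAaggcgtgc
LIG1: tcacccctTTTCCCGCcctcctcc

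In MCM6 and MCM2, matches on opposite strands overlapped, which gives a longer run of capitals. MCM6 held another such run further upstream, at chr2:135876576-135876603. Of the 34 matches in these windows, 27 were centred within 100 bases of the transcript start and 29 lay before it. The letters were less frequent in other gene lists of the cell cycle, being present in 12 of 68 windows (17.6%) of a list of other replication genes and in 4 of 37 windows (10.8%) of a list of mitotic genes. The CHR letters TTTGAA had the opposite distribution, with 28 of 37 mitotic windows (75.7%) and 2 of 58 windows of the 50 genes (3.45%), those of DUT and RRM1, against 15.2% of all windows. Windows with CCAAT, the letters bound by NF-Y, made up 51.7% for the 50 genes and 81.1% for the mitotic genes, against 34.6% of all. A match is a run of letters and was not tested as a binding site.

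**Figure D1:**
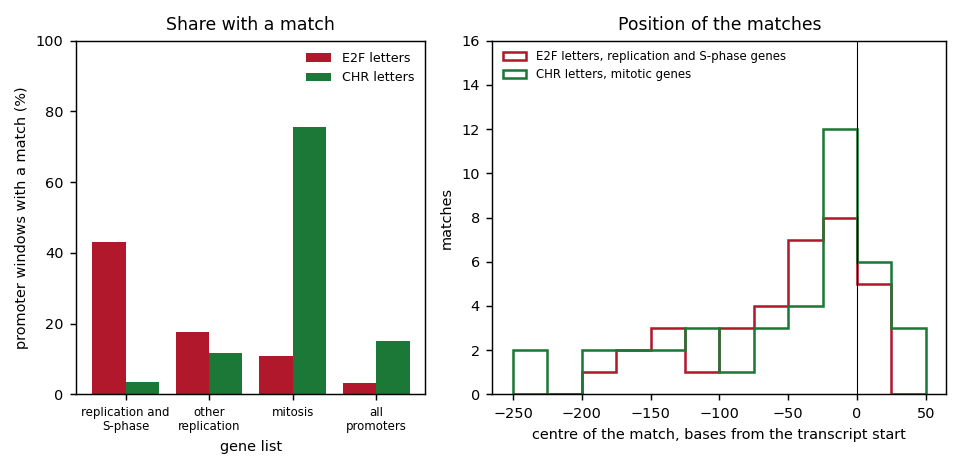
The left panel plots the share of promoter windows (percent) that hold the E2F letters (red) or the CHR letters (green) in each gene list and in all promoters. The right panel plots the number of matches by their distance in bases from the transcript start, with the start at 0; 27 of the 34 E2F matches of the replication and S-phase genes were centred within 100 bases of it.

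On the sunitinib array, replication genes were mostly lower than on the vehicle array. Of the 47 genes with a comparison, 15 (31.9%) were more than 2-fold lower, where 6.52% of all 14894 genes compared were. Only CDC6 was more than 2-fold higher, where 6.43% of all genes were. The 5 genes measured or bounded at more than 4-fold lower were CDC45 and GINS2 of the active helicase, thymidine kinase TK1, the transcription factor E2F2 and the chromatin protein UHRF1. Other genes that have only a bound may lie as low. Of all 14894 genes compared, 207 were more than 4-fold lower. By any amount, 39 genes were lower and 7 higher, where 7270 and 6718 of all 14894 genes were. The median log2 ratio was −0.74, a 1.67-fold lower level, against 0.00 over all genes. The lower and upper quartiles were −1.17 and −0.30. Beyond the 95% limit of the combined error, 30 genes were lower, where 21.1% of all genes were, and 2 were higher (CDC6 and MCM2), where 21.2% of all genes were. In bulk RNA, fewer cells in S phase and less RNA per cell cannot be told apart.

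How a low signal was treated bears on these counts. Of the 49 genes with a probe, 46 were well above background on the vehicle array, 45 on the cordyceps array and 35 on the sunitinib array. For 34 of the 47 genes both signals were well above background. For 12 genes 1 signal was not, and the ratio is a bound, computed against the lowest signal well above background on that array and written as "at least". For the remaining gene, E2F8, the bound did not exceed 1 and no ratio is given. ORC1 and CLSPN were not well above background on either array. When each array was scaled to its median in place of the 75th percentile, 26 genes were more than 2-fold lower, beside 13.0% of all genes, and the share of higher genes among all genes called moved from 49.7% to 21.3%. All genes then shifted by −0.31, and the median of the replication genes relative to that shift was −0.75. With normexp background correction, ORC6 (log2 ratio −0.79), MCM4 (−0.71), WDHD1 (−0.64), RFC2 (−0.67), E2F1 (−0.45) and CCNE2 (−0.20) did not pass 2-fold, nor did CDC6 (0.82), whereas MCM3 (−1.07), CHAF1A (−1.03) and MCM7 (−1.01) did, so that 12 genes were more than 2-fold lower. Over all genes, 5.63% were more than 2-fold lower with normexp. GINS2 (−1.31), E2F2 (−1.34) and UHRF1 (−1.32) stayed past 2-fold there but did not pass 4-fold. Without the floor and the filter, 22 genes were more than 2-fold lower, beside 6.74% of all genes. In that setting 27.8% of all genes were more than 2-fold higher, and their median was 0.24.

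**Figure D2:**
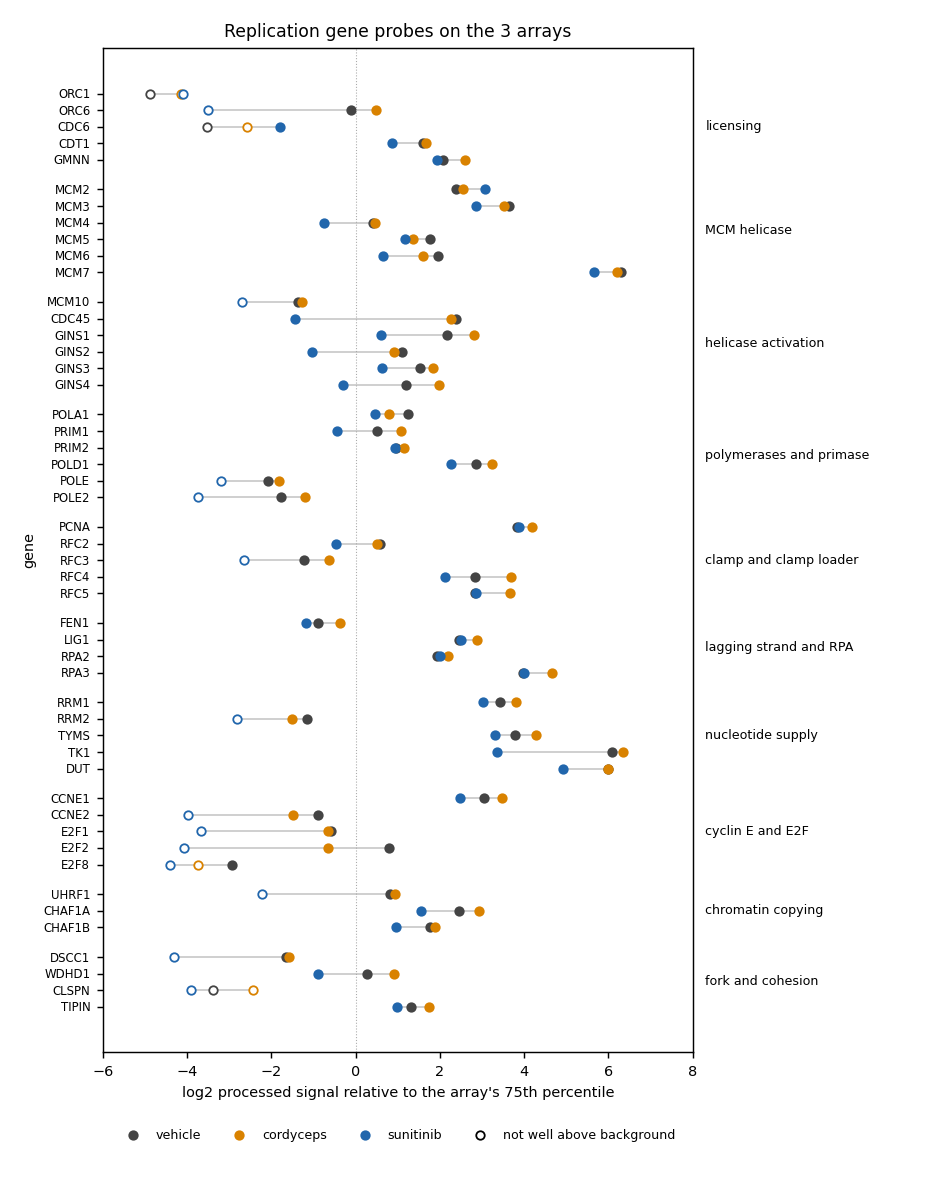
Each row is 1 gene, grouped by role, and the x axis is the log2 processed signal relative to the 75th percentile of the array. Filled circles are signals well above background on the vehicle (grey), cordyceps (orange) and sunitinib (blue) arrays, open circles are signals that were not, and 1 array stands behind each colour; the blue circle lies furthest left in most rows, with 35 of 49 filled.

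Licensing genes divided between lower and higher signals. ORC6, a subunit of the origin recognition complex, read 152 on the vehicle array, 192 on the cordyceps array and 6.92 on the sunitinib array, where it was not well above background. It was at least 3.94-fold lower on sunitinib. CDT1, which brings the MCM helicase to origins, had signals of 497, 437 and 142 in the same order, and its log2 ratio on sunitinib was −0.74. The high end was CDC6, the ATPase that loads MCM together with CDT1: its signal of 22.4 was well above background on the sunitinib array, whereas 14.3 on the vehicle array and 22.9 on the cordyceps array were not. CDC6 was therefore at least 2.59-fold higher, from a signal near the lowest that the software accepted there, 18.3. Geminin (GMNN), the inhibitor of CDT1, had a log2 ratio of −0.13, within its error limit of 0.40.

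The MCM helicase genes did not move as one. MCM6 had signals of 641 on the vehicle array, 420 on the cordyceps array and 122 on the sunitinib array, and was 2.50-fold lower on sunitinib (log2 ratio −1.32). MCM4 followed, with 220, 188 and 46.4, a 2.26-fold lower level. These subunits form part of the same ring as MCM2, which went the other way. MCM2 had signals of 859, 809 and 661 and was 1.62-fold higher relative to the array (log2 ratio 0.70, limit 0.40). Its sign held in the scaled settings and turned to −0.38 in the unscaled values, where the median over all genes was −1.06. MCM3, MCM5 and MCM7 lay between −0.78 and −0.61. All 5 lower subunits passed their error limits by the brighter probe. The other probes of MCM7 (−0.14, limit 0.46) and MCM5 (−0.46, limit 0.50) were lower as well and did not pass.

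The genes that turn the loaded helicase into the active one were lower on sunitinib in 6 of 6 cases. The difference was more than 2-fold in 4 of them, and the median log2 ratio was −1.53. CDC45, which joins MCM and GINS in the moving helicase, read 863 on the vehicle array, 667 on the cordyceps array and 29.0 on the sunitinib array. It was 14.1-fold lower on sunitinib (log2 ratio −3.82, limit 0.63), the lowest ratio among the 34 genes with both signals well above background, and −0.11 on cordyceps. With normexp, TK1 (−2.98) was below CDC45 (−2.42). GINS2, a subunit of the GINS complex, had signals of 356, 260 and 37.9 and was 4.46-fold lower on sunitinib. GINS1 and GINS4 were 2.96-fold and 2.83-fold lower, and GINS3 was 1.89-fold lower. MCM10, which helps to start unwinding, was dim on the sunitinib array. Its signals were 64.1, 57.4 and 12.1, the last not well above background, and it was at least 1.66-fold lower. That bound of −0.73 did not pass its limit of 0.85, and normexp gave no ratio for MCM10.

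All 6 genes of the polymerases and primase with a comparison were lower on sunitinib by some amount. The 4 with both signals well above background were less than 2-fold lower, and POLE and POLE2 were too dim for a 2-fold difference to be measured. PRIM1, the catalytic subunit of primase, had signals of 234 on the vehicle array, 289 on the cordyceps array and 57.5 on the sunitinib array (log2 ratio −0.95 on sunitinib). POLA1, the catalytic subunit of polymerase alpha, had 390, 239 and 108, with log2 ratios of −0.78 on sunitinib and −0.45 on cordyceps. POLE, the catalytic subunit of polymerase epsilon, was dim on every array. It read 38.8, 39.3 and 8.50, the last not well above background, so that the bound of −0.01 leaves its size unmeasured. POLD1 of polymerase delta was 1.51-fold lower, POLE2 was at least 1.25-fold lower, and PRIM2, the large primase subunit, was at −0.04.

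Of the 5 clamp and clamp loader genes, 3 were lower on sunitinib past their error limits and the others were at the array's overall level. RFC2, a subunit of the clamp loader, had signals of 248 on the vehicle array, 195 on the cordyceps array and 56.3 on the sunitinib array, a 2.09-fold lower level on sunitinib. RFC3 had 69.9, 89.5 and 12.4 and was at least 1.81-fold lower. That bound of −0.856 barely passed its limit of 0.852, and normexp gave no ratio for RFC3. PCNA, the clamp itself, read 2326, 2491 and 1147. Its log2 ratio on sunitinib was 0.05, well inside the limit of 0.40, and its other probe gave 0.05 as well. RFC4 was at −0.70 and RFC5 at 0.02. The small positive ratios of PCNA and RFC5, and those of LIG1, RPA2 and RPA3 below, turned negative under median scaling, in the unscaled values and with normexp background correction. Under median scaling and in the unscaled values, each stayed above the median over all genes (−0.31 and −1.06). With normexp, each was under the median over all genes (−0.07).

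Genes of the lagging strand and of RPA, the protein that coats single-stranded DNA, stayed within their error limits on sunitinib, in 4 of 4 cases. FEN1, the nuclease that trims Okazaki fragments, had signals of 88.2 on the vehicle array, 107 on the cordyceps array and 34.3 on the sunitinib array (log2 ratio −0.29, limit 0.61). RPA3 had 2602, 3516 and 1255 (log2 ratio 0.02). RPA2 had 633, 628 and 314 (log2 ratio 0.06). LIG1, the ligase that seals the fragments, was at 0.04.

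Nucleotide supply was lower at each of its 5 genes. TK1, which salvages thymidine and is made mainly in S phase, read 11109 on the vehicle array, 11163 on the cordyceps array and 799 on the sunitinib array. It was 6.61-fold lower on sunitinib (log2 ratio −2.72, limit 0.40). DUT, the enzyme that removes dUTP, had 10517, 8700 and 2380, and was 2.10-fold lower by this probe and at −1.20 by its other one. The ribonucleotide reductase subunit RRM1 was the nearest to vehicle. RRM1 had 1768, 1924 and 640, a log2 ratio of −0.39 that did not pass its limit of 0.40. RRM2, its partner, was at least 1.91-fold lower, and TYMS, thymidylate synthase, was 1.39-fold lower.

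Of the 5 cyclin E and E2F genes, 4 were not well above background on the sunitinib array. E2F2, an activating E2F, read 285 on the vehicle array, 87.3 on the cordyceps array and 4.66 on the sunitinib array, where it was not well above background. It was at least 7.39-fold lower on sunitinib, whereas its log2 ratio with normexp was −1.34. E2F1, the best known activator of S-phase genes, had 109, 87.4 and 6.18, and was at least 2.82-fold lower. E2F8, a repressing member that is itself transcribed late in G1, was dim throughout, with 21.4, 10.3 and 3.67, and only the vehicle signal was well above background. CCNE2 was at least 2.29-fold lower. CCNE1, which encodes the other cyclin E, was detected on every array and was 1.50-fold lower.

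Among genes that copy chromatin, UHRF1, which brings the maintenance DNA methyltransferase to new DNA, had signals of 292 on the vehicle array, 261 on the cordyceps array and 16.8 on the sunitinib array. It was at least 7.57-fold lower on sunitinib, whereas its log2 ratio with normexp was −1.32. Its other probe, dimmer on each array, gave a bound of −0.83. CHAF1A, the large subunit of the chromatin assembly factor that deposits histones behind the fork, had 901, 1055 and 229 (log2 ratio −0.91). CHAF1B, its middle subunit, had 562, 505 and 152 (log2 ratio −0.81). Both subunits passed their limits of 0.40 and 0.41.

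At the fork, WDHD1, which links the helicase to polymerase alpha, had signals of 198 on the vehicle array, 257 on the cordyceps array and 41.9 on the sunitinib array, a 2.25-fold lower level on sunitinib. DSCC1, part of a clamp loader used in sister chromatid cohesion, had 52.7, 46.3 and 3.91 and was at least 1.36-fold lower. TIPIN, which stabilises stalled forks, had 413, 460 and 153, and its log2 ratio of −0.35 did not pass its limit of 0.41. CLSPN, the checkpoint mediator claspin, read 15.7, 25.5 and 5.25 and ORC1 read 5.55, 7.80 and 4.59, none of them well above background.

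**Figure D3:**
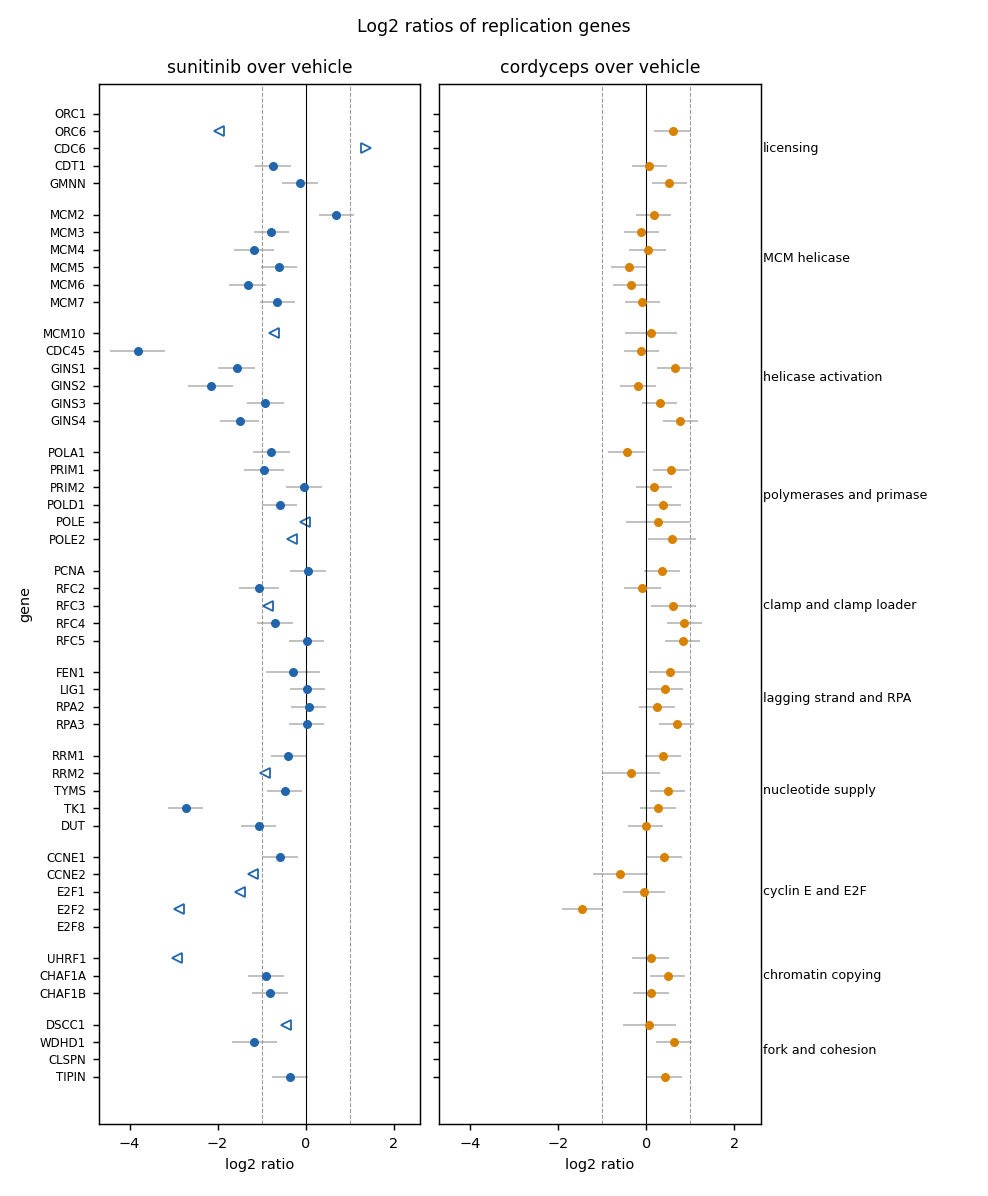
Log2 ratios of the replication genes on the sunitinib array (left) and the cordyceps array (right) over the vehicle array, 1 gene per row. Circles are ratios with both signals well above background, with bars for the 95% limit of the combined error, triangles are bounds that point away from 0, and dashed lines mark 2-fold; on sunitinib CDC45 lies furthest left at −3.82, and on cordyceps only E2F2 lies beyond 2-fold.

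Probes of 6 of the genes were printed in 10 spots on each array, which gives the spread within an array. GINS2 averaged 356 ± 13.5 (SD, 9 spots) on the vehicle array, 260.1 ± 16.8 (10 spots) on the cordyceps array and 37.9 ± 4.42 (10 spots) on the sunitinib array. For WDHD1 the averages were 198 ± 8.99 (10 spots), 257 ± 12.4 (10 spots) and 41.9 ± 6.18 (9 spots). PRIM1 gave 234 ± 17.6, 289 ± 10.6 and 57.5 ± 5.03. In raw signal the spots of these genes on the sunitinib array did not overlap with those on the vehicle array. Raw signals were mostly lower on the sunitinib array, so this gap alone does not set these genes apart. On the log2 scale relative to each array's overall level, their highest sunitinib spots were at −0.84 (GINS2), −0.61 (WDHD1) and −0.27 (PRIM1). Their lowest vehicle spots were at 1.01, 0.14 and 0.28, so the spots did not overlap on that scale either. CHAF1B had such a gap too, with its highest sunitinib spot at 1.15 and its lowest vehicle spot at 1.72. The share of other probes with such a gap was not counted, so the gap is not read as particular to these genes. E2F1 averaged 109 ± 7.05 for vehicle and 6.18 ± 2.36 for sunitinib, and ORC6 152 ± 10.2 and 6.92 ± 2.19. None of the sunitinib spots of E2F1 or ORC6 was well above background, whereas all of their vehicle spots were. Spots are technical repeats of 1 hybridisation and say nothing of the spread between cultures.

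**Figure D4:**
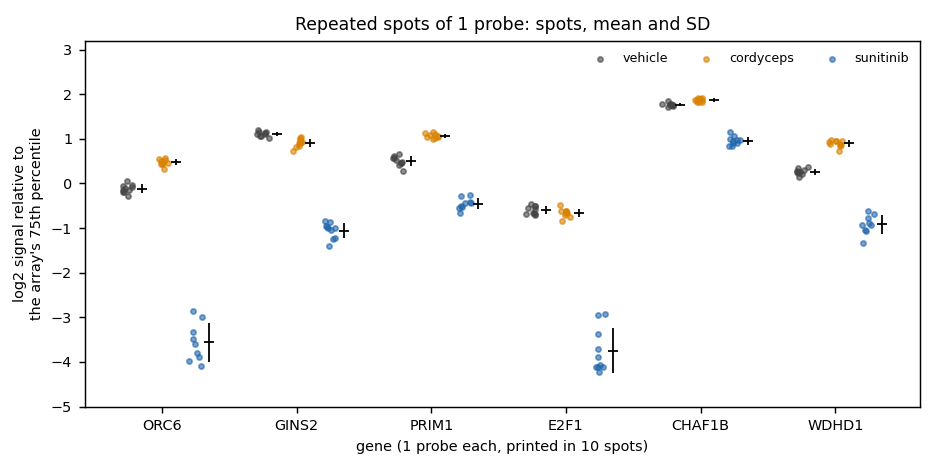
Log2 signal relative to the array's 75th percentile for the 6 replication genes whose probe was printed in 10 spots, on the vehicle (grey), cordyceps (orange) and sunitinib (blue) arrays. Points are single spots and the black marks give their mean and SD; the sunitinib spots lie lowest for each of the 6 genes.

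Other genes of the same pathway, 61 in all and outside the 50, were lower on sunitinib by less. Of 58 compared, 10 (17.2%) were more than 2-fold lower, where 6.52% of all genes were. More than 2-fold higher were 0, where 6.43% of all genes were, and the median log2 ratio was −0.34. Beyond the error limit 25 were lower and 3 higher, where 21.1% and 21.2% of all genes were. The 3 lowest with both signals well above background were HELLS, a chromatin remodeller, at −1.63, the repressor E2F7 at −1.50, and the helicase RECQL4 at −1.32. The 3 highest were RBL2, the retinoblastoma relative p130, at 0.57, SAMHD1, which degrades deoxynucleotides, at 0.53, and RRM2B, the reductase subunit used outside S phase, at 0.43. Each of these 3 passed its error limit with the 75th percentile scaling. In the unscaled values, where the median over all genes was −1.06, 0 of the 58 genes were higher. The other ORC and MCM-binding genes of the licensing step had log2 ratios between −0.36 and 0.10, and 0 of 5 passed the limit. The 50 genes and this list were chosen with earlier results of these data known, and the difference between them was not tested.

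Mitotic genes, a list of 40, were further below vehicle than the replication genes. On sunitinib, 35 of 37 compared were more than 2-fold lower, where 6.52% of all genes were. Of these, 29 were more than 4-fold lower, where 207 of all 14894 genes were. The median log2 ratio was −2.73 against −0.74 for the replication genes. Of the 37 mitotic ratios, 16 were bounds, and CENPE at the median was one of them. The lowest with both signals well above background were the kinetochore gene NDC80 at −4.76, the kinesin KIF2C at −4.23 and HMMR, a spindle protein, at −3.74. The highest were INCENP of the chromosomal passenger complex at −0.80, the checkpoint gene MAD2L1 at −1.11 and ECT2, which acts in cytokinesis, at −1.36. Of the replication genes, CDC45 and the bounds of UHRF1 and E2F2 lay below the mitotic median, with TK1 next at −2.72. With 1 array per condition, and lists chosen with earlier results of these data known, the difference between the lists was not tested.

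**Figure D5:**
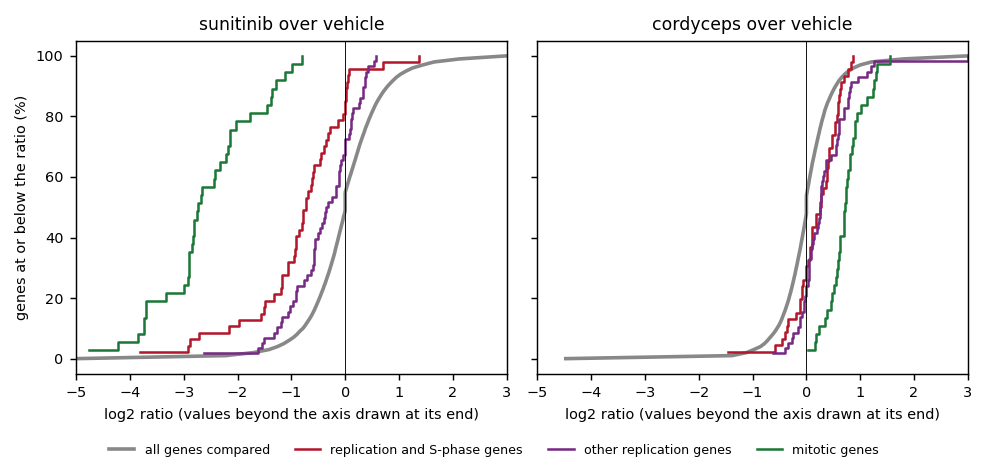
Cumulative share of genes (percent) at or below a given log2 ratio over the vehicle array, for sunitinib (left) and cordyceps (right), with bounds entered at their value. On sunitinib the replication and S-phase genes (red, median −0.74) lie between all genes (grey, median 0.00) and the mitotic genes (green, median −2.73), and on cordyceps the mitotic genes lie to the right, with a median of 0.72.

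On the cordyceps array, most replication genes were within 2-fold of vehicle, and more were higher than lower. Of 46 compared, 1 was more than 2-fold lower, where 2.75% of all 14775 genes compared were, and 0 were more than 2-fold higher, where 3.01% of all genes were. The one was E2F2, whose signal of 87.3 against 285 on the vehicle array is a 2.73-fold lower level (log2 ratio −1.45, limit 0.48). By any amount, 32 genes were higher and 13 lower, where 6826 and 7071 of all 14775 genes were. The median log2 ratio was 0.26 against 0.00 over all genes. In the unscaled values the median was 0.00, against −0.24 over all genes, with 23 genes higher and 22 lower. Beyond the error limit 17 genes were higher, where 14.1% of all genes were, and 2 were lower, where 13.0% of all genes were, namely E2F2 and POLA1. With normexp background correction, E2F2 was at −0.94 and no replication gene was more than 2-fold lower.

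By role, 3 of the clamp loader genes were higher on cordyceps. RFC4 had a log2 ratio of 0.86, RFC5 of 0.83 and RFC3 of 0.61, each past its limit, whereas RFC2 was at −0.09. Scaled to the array median, RFC4 and RFC5 passed 2-fold, at 1.08 and 1.04, where 5.04% of all genes were more than 2-fold higher. GINS4 was at 0.77, GINS1 at 0.65 and RPA3 at 0.69, all past their limits, while GINS2 was at −0.20 and CDC45 at −0.11. The MCM helicase genes ran from −0.40 (MCM5) to 0.17 (MCM2), and 0 of 6 passed the limit. The median of the MCM genes was −0.10, and 0.12 under median scaling, where the median over all genes was 0.18. The 4 cyclin E and E2F genes with a ratio had a median of −0.32, with E2F2, CCNE2 (−0.59) and E2F1 (−0.06) below 0 and CCNE1 (0.41) above it.

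The other replication genes on cordyceps had a median of 0.25. More than 2-fold higher were 4 of 58 (6.90%) and 0 were lower, where 3.01% and 2.75% of all genes were. Of the 4, TFDP2, a partner of the E2F proteins, lay in the bright area of the array and its log2 ratio of 3.45 is therefore not read as a level. The others were E2F7 at 1.25, the kinase CDC7 that fires origins at 1.19, and TICRR, which also acts in firing, at 1.12, and these genes are named after their values were seen. The mitotic genes were higher in 37 of 37 cases, where 6826 of all 14775 genes were, with a median of 0.72. More than 2-fold higher were 7 of them (18.9%), where 3.01% of all genes were. In the unscaled values, where the median over all genes was −0.24, 33 of the 37 were higher. E2F2, at −1.45, and the mitotic genes thus lay on opposite sides of vehicle on this array. Both comparisons share the vehicle array, so an error in that array enters each of them.

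Markers of kidney epithelium and of other cells were read to check the label of the line. PAX8, PAX2, KRT8, KRT18, KRT19 and CDH2 were well above background on all 3 arrays, CA12 was so on the vehicle array only and CA9 on none. Among markers of other cells, the T cell gene CD3E, the endothelial gene PECAM1 and the fibroblast gene COL1A2 were not well above background on any array. The endothelial gene CDH5 was well above background on all 3 arrays, at 108, 79.7 and 60.4, and VWF on the vehicle and cordyceps arrays, at 96.8 and 73.4. Of 4 fibroblast markers, 3 were lower on both treated arrays. DCN read 707 on the vehicle array, 169 on the cordyceps array and 31.2 on the sunitinib array, COL1A1 5308, 1069 and 385, and LUM 383, 89.1 and 13.9. Summed and relative to the 75th percentile, the fibroblast markers stood at 38.9, 9.69 and 5.55 and the 3 endothelial markers at 1.27, 1.16 and 1.02. Relative to the 75th percentile, the leukocyte gene PTPRC was 5.23-fold higher on sunitinib, by the brightest of its 5 probes. Its raw signals were 18.4 (vehicle) and 45.7 (sunitinib). The former was near 18.2, the lowest vehicle signal well above background. The part of these markers in the replication gene ratios was not tested.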

How the data were processed

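The deposited values are linear spot intensity values that the authors obtained with Agilent Feature Extraction 11.5.1.1, after background subtraction, for 62976 spots per array with an error estimate each. File headers give hg19 as the build. A further deposited table holds unscaled intensity per probe, and 99.97% to 99.99% of its entries matched the averaged processed intensity within 0.01%. The study's methods name another array with a red over green ratio, which single-colour files do not hold; the 2-fold limit was taken from them.

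Control spots and outlier spots (63 to 121 per array) were left out, no spot was saturated, and repeated spots were averaged. Probes were named by accession through a RefSeq table of GRCh38.p14, and the probe brightest over the 3 arrays represented a gene. A ratio needed a signal well above background on either array; the dimmer signal was raised to the lowest such signal where it was not, which understates large differences. The error limit was 1.96 times the combined error of the signals. In each role group, signals are given for the 2 lowest and the highest sunitinib ratio and for any gene past 2-fold on cordyceps or 2-fold higher. The members and the gene lists were chosen with earlier results of these data known. The calculations, tested on simulated data, used Python 3.11.15, numpy 2.4.6, pandas 2.3.3, matplotlib 3.10.9, R 4.3.3 and limma 3.58.1 (normexp, offset 50), and 12 alternative settings were tried. The paper's protein, reporter, cell and mouse experiments were not analysed here. A marker gene that was read is not reported here.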

Additional observations from a re-analysis of the deposited data

How the results depend on the processing

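Leaving out an array was not possible with 1 per condition. No paired analysis was possible because each condition has 1 array. The count of replication genes more than 2-fold lower on sunitinib was 15 and became 26 under median scaling and 44 in the unscaled values, where 53.8% of all genes were lower and 1.97% of the genes called were higher. The median log2 ratio on sunitinib was −1.81 unscaled, −0.75 below the median of all genes. The count of genes more than 2-fold higher on sunitinib was 0 unscaled, 0 with normexp and 0 where both signals had to be well above background, a filter that leaves out the bound of CDC6. On cordyceps, median scaling gave 2 genes more than 2-fold higher (RFC4 and RFC5), beside 5.04% of all genes. There normexp gave 0 more than 2-fold lower, beside 1.26% of all genes. Among all genes called on cordyceps, the share that was higher was 52.2%, 77.0% with median scaling and 24.7% unscaled. Without filter and floor, 22 genes were lower on sunitinib, and E2F2 was at −4.86 and UHRF1 at −3.05. With normexp, E2F2 was at −1.34 and UHRF1 at −1.32. UHRF1 was at −1.88 as the mean of its probes. With the shorter E2F letters, lacking the first T, 35 of 42 genes (83.3%) had a match in place of 24, against 15.3% of all genes. The cause of these differences was not tested. The number of arrays and the signal over background, which 14 of the 49 genes lacked on sunitinib, limit every ratio.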
